A study of Mus musculus with 6 samples.

Results

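The Wnt pathway genes described here are the GRCm38 protein-coding genes with a symbol of Wnt or Fzd followed by a number, together with Lrp5, Lrp6, Ctnnb1, Apc, Axin1, Axin2, Gsk3b, Dvl1, Dvl2 and Dvl3. This rule gave 39 of the 21631 protein-coding genes on chromosomes 1 to 19 and X: 19 ligands, 10 Frizzled receptors, 2 co-receptors and 8 cytoplasmic members. ATAC-seq, which uses a transposase to insert adapters where DNA is accessible, measured open chromatin in whole thymus of mice with germline p53 alterations at an age of 4 weeks. The p53 AD/- group (AD/- below) carried an allele named AD, which the series describes as dimeric, over a null allele, and the p53 -/- group (null below) carried no functional p53 allele. Both groups shared at least 1 null allele and a mixed BALB/C and C57BL6 background, and each had 3 libraries, numbered in order of deposition. The library titles carry different identifiers, but the labels do not say whether these are separate mice, so the spread between them may be technical.

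The deposited data were 1 list of peak summits per library. The AD/- libraries 1, 2 and 3 held 54618, 60160 and 44496 summits, against 54152, 55653 and 58019 in the null libraries, and AD/- library 3 had the shortest list. All 12 thymocyte markers examined, among them Cd3e, Cd4, Cd8a and Rag1, carried a gene-end summit in every library. Of 9 thymic epithelial markers, Aire, Epcam, Ccl25 and Cldn4 had one in all 6 libraries, Foxn1 in 5 and Psmb11 in 2, and Krt5, Krt8 and Krt14 had none; the counts of these 9 were 4, 5 and 5 in AD/- and 6, 6 and 5 in null, and their part in the results below was not tested. In whole tissue, a site open in fewer cells and a site less open in each cell cannot be told apart. Scores are the authors' own, and a score percentile ranks a summit among those of the same list, 100 being the highest. It is a description within a list, because scores rise with read depth, which is unknown.

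Wnt ligands are secreted lipid-modified proteins that bind Frizzled receptors and, for the canonical branch, the co-receptors LRP5 and LRP6. Without a ligand, a complex of AXIN, APC and the kinase GSK3B marks beta-catenin, the product of Ctnnb1, for degradation. Ligand binding recruits Dishevelled proteins, the complex is inhibited, and beta-catenin enters the nucleus to act with TCF and LEF factors. In the thymus the pathway is known for its part in the growth of early thymocytes, which use TCF1 and LEF1, and for ligands made by epithelial and stromal cells.

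Open chromatin at gene ends was found for most receptor and cytoplasmic genes and for fewer ligands, and the genotypes overlapped. A summit lay within 1 kb of an annotated gene end in 26, 27 and 23 of the 39 genes in AD/- libraries 1, 2 and 3, against 27, 28 and 26 in the null libraries. The mean ± SD was 25.3 ± 2.08 genes for AD/- and 27.0 ± 1.0 for null (n = 3 per genotype), and the ranges of the groups overlapped. As shares, the means ± SD were 65.0% ± 5.32 for AD/- and 69.2% ± 2.55 for null, where 55.8% ± 1.78 and 56.4% ± 0.115 of all protein-coding genes had such a summit (n = 3 per genotype). In all 6 libraries the summit was found in 22 of the 39 genes (56.4%, compared with 52.6% of all genes), in 7 it was found in some libraries, and in 10 (25.6%, compared with 40.7% of all genes) in none. No gene of the 39 had one in every AD/- library and none in null, where 0.0185% of all genes did, and 1, Wnt8a, had one in every null library and none in AD/-, where 0.0324% of all genes did. Either annotated end counted.

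**Figure D1:**
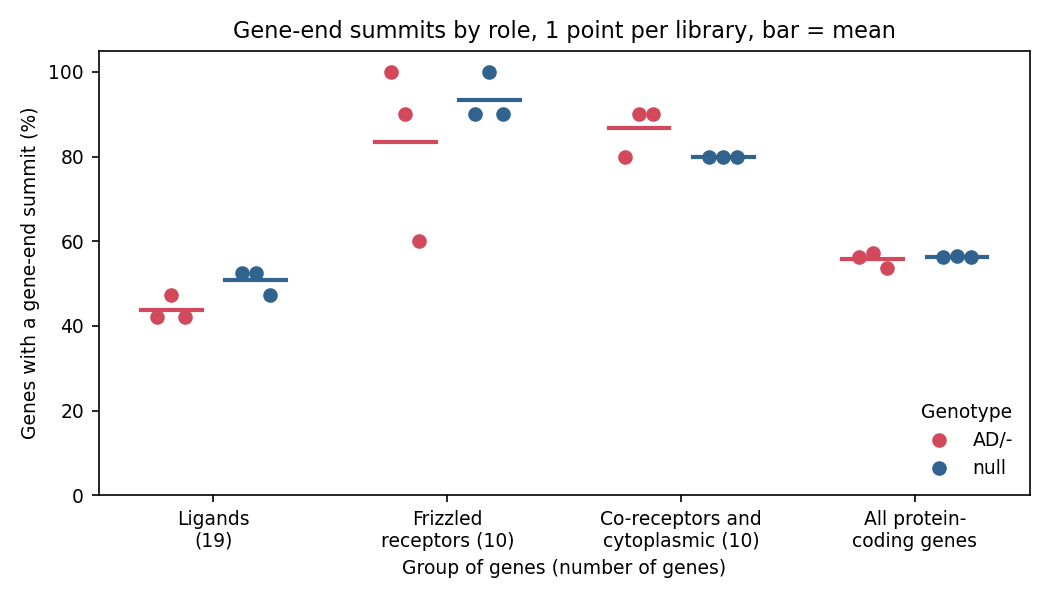
Share of genes with a summit within 1 kb of an annotated end (y axis, percent) for ligands, Frizzled receptors, co-receptors with cytoplasmic members, and all protein-coding genes (x axis); each point is a library, with AD/- left of null, and bars are means of 3 libraries. Ligands sit lowest, and the lowest Frizzled point, 60.0%, is AD/- library 3.

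The ligands were the least often open at their ends. Of 19, 8 had a gene-end summit in all 6 libraries, 2 in some and 9 in none. The 8 were Wnt1, a patterning signal of the midbrain, Wnt2b, Wnt3, Wnt5b, which acts largely outside the beta-catenin branch, Wnt6, Wnt7a, a signal of limb and uterus patterning, Wnt9a and Wnt10a, a gene of tooth and skin appendages. The 9 without one were Wnt2, Wnt3a, a classical activator of beta-catenin, Wnt5a, Wnt7b, Wnt8b, Wnt9b, a signal of kidney tubule induction, Wnt10b, Wnt11 and Wnt16, a gene of cortical bone. Wnt2, Wnt5a, Wnt9b and Wnt16 also had 0 assigned regions. For Wnt9b this came from the assignment to the nearest end, since all 5 regions assigned to the overlapping gene Wnt3 lay inside Wnt9b.

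Where ligand ends were open, their scores were modest. The median of the gene-level percentiles was 43.3 over the 10 ligands with a summit, compared with 87.6 over all genes with one. Wnt10a had the highest median, with percentiles of 78.5, 82.7 and 71.7 in AD/- libraries 1 to 3 and 80.2, 78.4 and 80.6 in the null libraries, and this strongest summit stood at the same base, 954 bp inside its upper end, in every library. At its lower end, summits were found only in AD/- library 2, at 4.46 and 4.38, and in null library 2, at 2.12. No strand was available for Wnt10a, so which end holds its start was not determined. Wnt9a was among the lowest, with 9.89, 25.1 and 6.93 in AD/- and 17.0, 21.6 and 12.4 in null. For both genes the ranges of the genotypes overlapped. Wnt4, a ligand of the kidney and gonads, had a gene-end summit in AD/- library 2 alone of that genotype, at percentile 14.9, and in null libraries 1 and 2, at 8.54 and 9.58.

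Every Frizzled receptor gene had a gene-end summit in at least 2 libraries. Fzd3, a receptor of axon guidance and tissue polarity, Fzd4, a receptor of retinal blood vessels, Fzd5, Fzd7, Fzd9 and Fzd10 had one in all 6. Fzd7 (chromosome 1, 59482147 to 59486955) and Fzd5 (chromosome 1, 64730558 to 64737750) scored highest. Fzd7 had percentiles of 92.3, 91.5 and 89.3 in AD/- and 91.0, 93.5 and 92.0 in null. Fzd5 had 91.1, 93.2 and 91.0 in AD/- and 91.8, 90.9 and 94.7 in null. The genotypes overlapped for both. Fzd3 had its summit 3 bp outside its upper end at the same base in all 6 libraries, at percentiles from 79.4 to 85.6.

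Fzd1, Fzd6, a receptor of hair and tissue polarity, and Fzd8 had a gene-end summit in every library except AD/- library 3, the shortest list. Fzd1 had percentiles of 5.61 and 33.8 in AD/- libraries 1 and 2 and of 16.3, 18.7 and 35.3 in the null libraries. Fzd6 had 18.8 and 45.7 in AD/- libraries 1 and 2, against 36.4, 37.7 and 29.7 in null. These overlapped between genotypes. Fzd8 had 7.33 and 4.9 in AD/- libraries 1 and 2, against 4.77, 7.89 and 7.66 in null, low in all 5. Fzd2 had a summit in AD/- library 1 and null library 2 alone, at 10.6 and 5.53. The counts of Frizzled genes were 10, 9 and 6 in AD/- libraries 1 to 3 and 9, 10 and 9 in null, so the low value was that of AD/- library 3.

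Co-receptors and cytoplasmic members were open at higher scores. The median gene-level percentile was 90.4 over the 9 with a gene-end summit. Lrp5 and Lrp6, which encode the co-receptors, had one in all 6 libraries. Lrp5 ranged from 74.2 to 81.5, and Lrp6 had 91.6, 93.3 and 90.9 in AD/- and 91.8, 91.8 and 92.2 in null. Gsk3b, the kinase of the destruction complex (chromosome 16, 38089001 to 38246084), had its summit 50 bp inside its lower end at the same base in all 6 libraries, with percentiles of 99.2, 99.6 and 99.0 in AD/- and 99.0, 97.3 and 99.7 in null. Apc, the scaffold of that complex, had 97.3, 98.7 and 97.2 in AD/- and 97.5, 96.0 and 97.9 in null. Ctnnb1 had 96.5, 95.5 and 96.8 in AD/- and 97.5, 97.8 and 95.9 in null. These 3 genes stood near the top of every list in both genotypes. Dvl1, Dvl2 and Dvl3, the Dishevelled genes, ranged from 88.8 to 94.2, from 75.5 to 83.5 and from 81.2 to 90.7, and the Dvl1 summit lay 1 bp from the annotated end in all 6 libraries.

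The Axin genes stood apart by the gene-end measure. For Axin1, a scaffold of the destruction complex, AD/- libraries 2 and 3 alone gave a gene-end summit. These were different sites, 772 and 85 bp inside the lower end, at percentiles 6.33 and 8.38. Inside Axin1, 7383 bp from that end, a region was found in all 6 libraries at percentiles from 95.2 to 96.2. This region also lay inside another annotated gene, Gm46600. No listed start site was available for Axin1, so whether its start was open was not determined. Axin2, a feedback inhibitor and a widely used target of beta-catenin, had none at either annotated end in any library. Its annotation begins upstream of the listed start site at 108920349 on chromosome 11, and a summit lay 170, 109 and 48 bp downstream of that site in AD/- and 48, 48 and 164 bp downstream in null. The percentiles were 96.7, 96.6 and 96.3 in AD/- and 95.8, 96.5 and 96.6 in null. By its start site Axin2 was thus open in all 6 libraries.

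**Figure D2:**
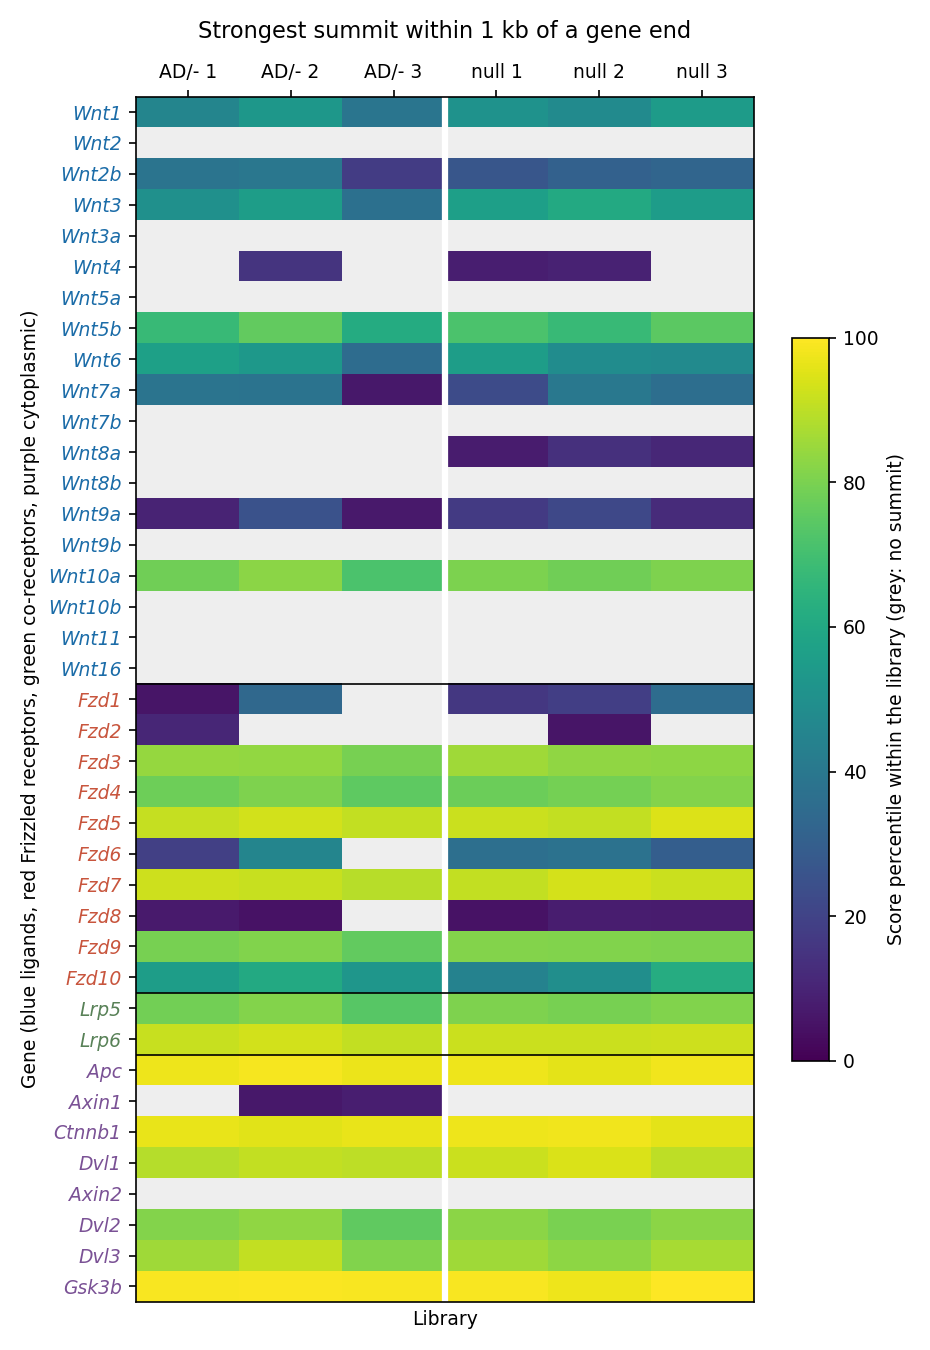
Score percentile (colour, 0 to 100 within each library) of the strongest summit within 1 kb of a gene end, for the 39 genes (rows) in the 6 libraries (columns, AD/- left of null); grey cells had no summit. Gsk3b, Apc and Ctnnb1 are bright in every column, 10 rows are grey throughout, and Wnt8a is coloured in the null columns alone.

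Several of these ends were shared with another gene, and then the summit cannot be given to either alone. For protein-coding neighbours this held for Fzd4 with Tmem135, Dvl2 with Phf23 and Wnt5b with Gm52875 in all 6 libraries, and for the upper end of Dvl1 with Tas1r3 in 5. Apc shared its end with a transcribed pseudogene, Gm10548. Non-coding RNA genes shared an end with Dvl3, Fzd10, Fzd6, Gsk3b, Lrp5 and Wnt7a.

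Start sites with strand were available from RefSeq on GRCm38.p6 for 27 of the 39 genes, as 31 windows from 250 bases before to 50 after the start. Wnt5a, Wnt7b, Wnt8a, Wnt10a, Fzd2, Fzd3, Fzd6, Fzd8, Lrp5, Lrp6, Apc and Axin1 had no window. Of the 27 genes, 18 had a summit within 1 kb of a start site in all 6 libraries and 7 in none, where 55.2% and 39.3% of the 17274 protein-coding genes with a window did. No gene of the 27 had one in a single genotype alone, where 0.0289% of all genes had one in AD/- alone and 0.0174% in null alone. For the 19 of these genes with a gene-end summit, a summit was found on the start side. Ctnnb1, Dvl1 and Wnt6 had a further summit at the other end in 3, 5 and 5 libraries. For Wnt6 the annotated lower end was open in all 6 libraries, while the listed start site at 74771892 had its nearest summit 1373 to 1411 bp away. Wnt11, a ligand of cell movement in gastrulation, had no summit within 1 kb of its first start and one 146 to 779 bp from its second in all 6 libraries.

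The start-site windows were mostly rich in the dinucleotide CpG. Windows with at least 50% GC and an observed over expected CpG of at least 0.6 numbered 26 of 31. Among such windows a summit within 1 kb was found in all 6 libraries for 7 of 13 ligand windows (53.8%) and 12 of 13 windows of the other members (92.3%), where 86.4% of all CpG-rich windows had one. In no library was one found for 5 of the 13 ligand windows (38.5%), against 0 of 13 for the other members and 8.55% over all genes. The 5 belonged to Wnt2, Wnt3a, Wnt6, Wnt9b and the first start of Wnt11. These are counts of windows, and a gene can have more than 1.

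The 120 bases before the start are shown for 6 genes whose start-site summits ranged from all libraries to none, 5′ to 3′ along the gene's strand, with each CpG in capitals. Gsk3b and Fzd5 had a summit within 1 kb in all 6 libraries, Fzd1 in 5, Wnt4 in 3, and Wnt3a and Wnt8b in none.
Gsk3b, chr16:38088881-38089000, + strand: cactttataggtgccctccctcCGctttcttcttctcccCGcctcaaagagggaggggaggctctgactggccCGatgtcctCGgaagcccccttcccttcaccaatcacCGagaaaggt
Fzd5, chr1:64737751-64737870, - strand: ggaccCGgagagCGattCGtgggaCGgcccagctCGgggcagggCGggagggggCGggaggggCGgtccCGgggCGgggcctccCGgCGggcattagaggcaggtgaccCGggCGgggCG
Fzd1, chr5:4758217-4758336, - strand: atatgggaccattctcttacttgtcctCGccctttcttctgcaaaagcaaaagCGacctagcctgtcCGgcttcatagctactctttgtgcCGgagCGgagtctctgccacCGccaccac
Wnt4, chr4:137277515-137277634, + strand: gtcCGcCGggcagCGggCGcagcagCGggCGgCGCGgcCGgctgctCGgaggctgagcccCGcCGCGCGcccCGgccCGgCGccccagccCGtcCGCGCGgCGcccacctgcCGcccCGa
Wnt3a, chr11:59290752-59290871, - strand: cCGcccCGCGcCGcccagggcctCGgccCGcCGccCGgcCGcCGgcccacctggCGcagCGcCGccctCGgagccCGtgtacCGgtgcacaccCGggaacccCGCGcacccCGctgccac
Wnt8b, chr19:44493352-44493471, + strand: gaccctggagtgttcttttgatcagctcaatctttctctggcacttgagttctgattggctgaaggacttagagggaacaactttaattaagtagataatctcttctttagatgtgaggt
These stretches held 5, 15, 6, 24, 20 and 0 CpG, so the stretch of Wnt3a, without a summit, had more than those of Gsk3b and Fzd5, with one in every library. The nearest summit to the Wnt3a start lay 3075 to 3141 bp upstream in the 6 libraries.

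**Figure D3:**
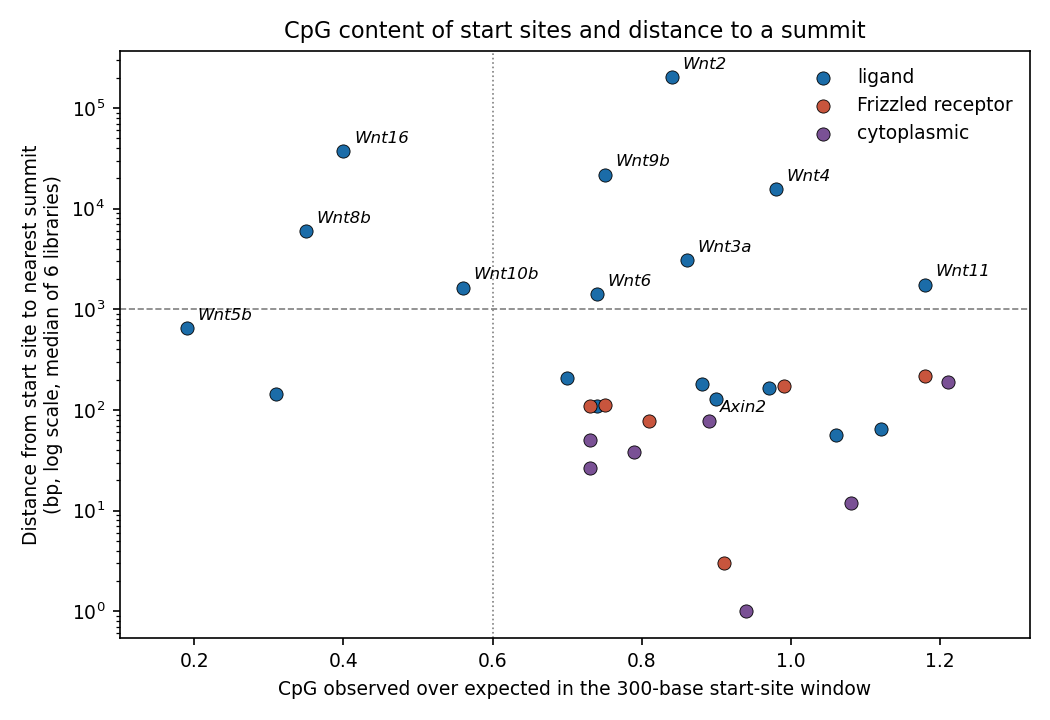
Observed over expected CpG in the 300-base start-site window (x axis) against the distance from the start site to the nearest summit (y axis, bp, log scale, median of the 6 libraries) for 31 windows, coloured by role; the dashed line is 1 kb and the dotted line 0.6. All points of Frizzled and cytoplasmic genes lie below the dashed line, and the ligands spread over both sides of it.

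The TCF/LEF core CTTTGAT was searched on both strands, where it can also read ATCAAAG. It was found in 2 of the 31 windows (6.45%), against 3.25% of all windows, and both belonged to ligands. It stood 51 bases before the first Wnt11 start, which had no summit within 1 kb, and 71 bases before the most downstream Wnt5b start, which had a summit 131 to 180 bp away in all 6 libraries, at percentiles from 34.8 to 53.2. The matches are shown with 9 bases on either side and the motif in capitals.
Wnt11, chr7:98835052-98835076, + strand: cgtgggcggATCAAAGcgacggtcc
Wnt5b, chr6:119449442-119449466, - strand: taagtctctCTTTGATctgctccct
The decamer of the p53 response element was matched in 1 of the 31 windows (3.23%, against 7.37% of all windows), that of the first Wnt11 start, and the full element of 2 such decamers in 0 (0.0475% of all windows). A match is a description of the letters and not a binding site.

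Regions were made by extending each summit by 250 bp on either side and merging windows that overlapped in any libraries. Each region went to the gene whose annotated end was closest, up to 50 kb away. The 39 genes received 141 of the 73702 regions. AD/- libraries 1, 2 and 3 had a summit in 99, 111 and 78 of them, against 108, 107 and 110 in the null libraries. The means ± SD were 68.1% ± 11.8 of the 141 for AD/- and 76.8% ± 1.07 for null, where 71.8% ± 10.8 and 75.7% ± 2.67 of all regions had one (n = 3 per genotype). The groups overlapped, and the lowest value was that of the shortest list. A summit in all 6 libraries was found in 70 regions (49.6%, compared with 52.1% of all regions) and in a single library in 21 (14.9%, compared with 16.4%). Of the 15 regions found in 5 libraries, 13 (86.7%) were missing from AD/- library 3, as were 73.2% of all such regions.

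Lrp5 had the most regions, 11, of which 8 were found in all 6 libraries, and 4.79% of protein-coding genes had as many. Fzd10 and Wnt7b, a ligand of lung and kidney development, followed with 9 each, 2 and 5 of them in all 6 libraries, then Wnt10a with 8, 5 in all 6. With 7 each came Gsk3b, Wnt5b and Wnt11, of which 5, 3 and 1 were in all 6 libraries. The strongest gene-end summit of Wnt5b, at percentiles from 61.4 to 76.1 in the 6 libraries, is in none of its 7 regions. An annotated end of another gene lay closer to it. Counts per library were 9, 10 and 8 in AD/- and 9, 10 and 10 in null for Lrp5, and 6, 8 and 5 in AD/- and 5, 6 and 8 in null for Wnt7b. These overlapped between genotypes. Wnt10a had 5, 8 and 5 in AD/- and 6, 6 and 6 in null. Fzd10 had 4, 5 and 5 in AD/- and 6, 7 and 5 in null, and Gsk3b 5, 6 and 5 in AD/- and 7, 5 and 6 in null. The genotypes overlapped in each of these as well. Wnt5b had 6, 6 and 3 in AD/- and 5, 5 and 6 in null, and Wnt11 had 4, 4 and 3 in AD/- and 2, 5 and 6 in null, again with overlap. The median over the 39 genes was 3 regions, compared with 1 over all protein-coding genes.

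**Figure D4:**
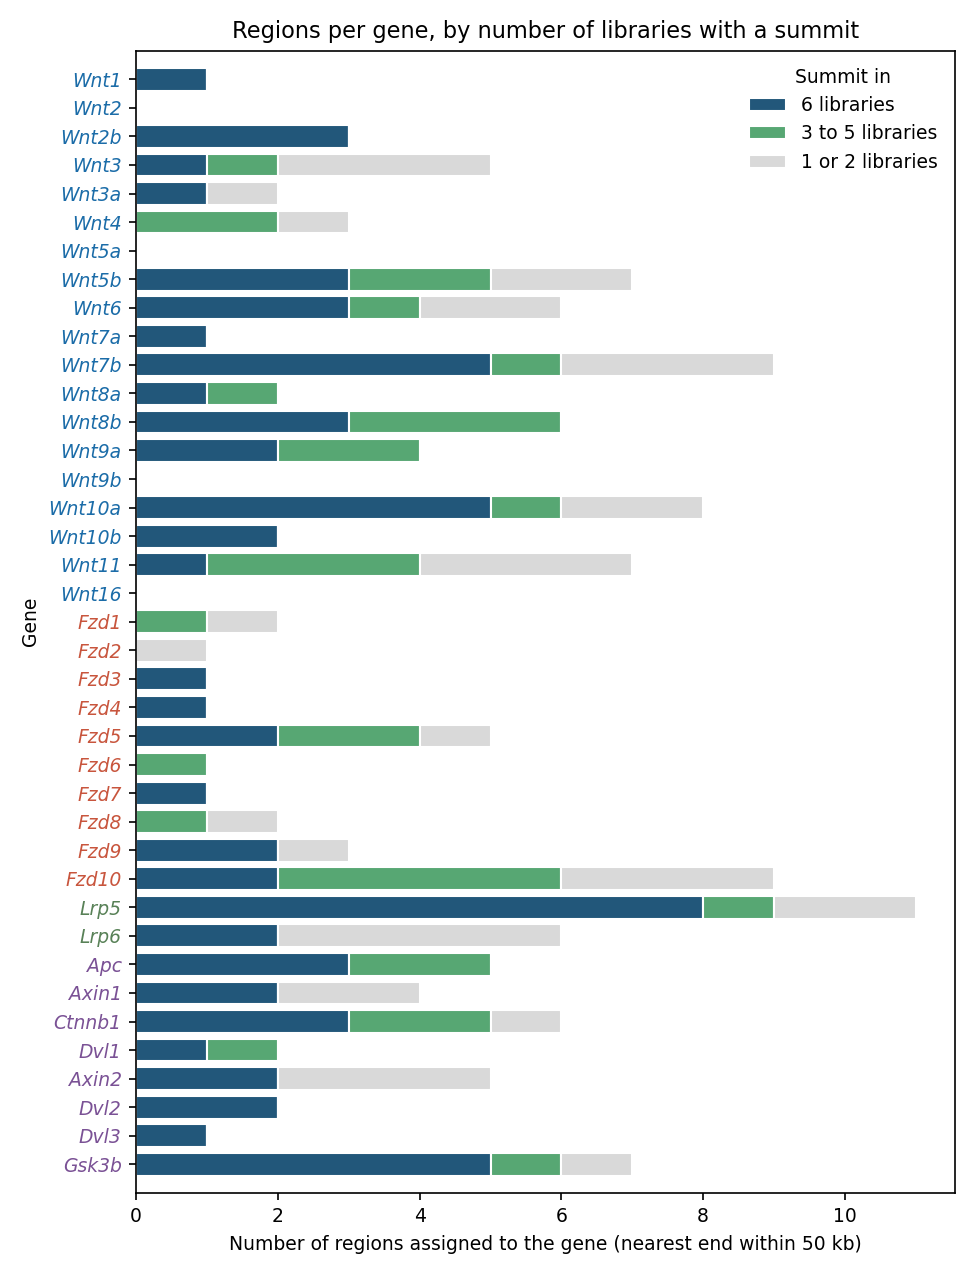
Number of regions assigned to each of the 39 genes (x axis) by how many libraries had a summit in them (6, 3 to 5, or 1 or 2). Lrp5 has the longest bar with 11 regions, and Wnt2, Wnt5a, Wnt9b and Wnt16 have none.

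Regions away from gene ends were in all libraries about as often as over all genes. Beyond 1 kb of a gene end, 49 of 104 (47.1%) were found in all 6 libraries, where 47.0% of all such regions were. Within 1 kb of a gene end lay 37 of the 141 regions, 21 of them (56.8%) in all 6 libraries, where 79.1% of all regions at gene ends were. Deeper inside the genes lay 50, with 29 (58.0%) in all 6, and outside lay 54, with 20 (37.0%). Inside Gsk3b, 4 regions beyond the gene end were found in all 6 libraries, at median percentiles of 59.7, 65.1, 74.4 and 78.8. Wnt7b, with no gene-end summit, had 5 regions in all 6 libraries, the highest at percentiles from 69.2 to 78.8 and 29047 bp from the gene. A region 12854 bp beyond Wnt10a was found in all 6 libraries at percentiles from 89.8 to 92.6, above the region at the end of that gene.

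Ligand genes lie in pairs on several chromosomes, and 4 pairs had ends within 50 kb of each other. Wnt10b and Wnt1, the second of them first found as an insertion site of mouse mammary tumour virus, spanned 3 regions, each present in all 6 libraries. Wnt6 and Wnt10a spanned 11 regions, with 6, 10 and 5 in AD/- and 7, 7 and 8 in null. Wnt9b and Wnt3, which overlap, spanned 5, with 3, 2 and 1 in AD/- and 3, 1 and 3 in null. Wnt3a and Wnt9a, 16097 bp apart, spanned 5, with 4, 4 and 3 in AD/- and 5, 5 and 5 in null. In AD/- libraries 1 and 2 the lower count came from a single region, the null-only region near Wnt9a described below.

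No region of the 39 genes was specific to AD/-, with a summit in every AD/- library and none in null, where 0.179% of all regions were. Of the 141 regions, 2 were specific to null by the same rule, near Wnt9a and Wnt8a, where 0.418% of all regions were. A single region cannot pass Fisher's exact test with 3 libraries against 3, where the smallest p is 0.1, and 2 regions are too few to read a share from.

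The Wnt9a region (chromosome 11, 59302646 to 59303163) lay 3952 bp outside the lower end of the gene, between Wnt3a and Wnt9a and inside no annotated gene. It had no summit in AD/- libraries 1, 2 and 3, and summits in null libraries 1, 2 and 3 at 59302913, 59302897 and 59302896, with percentiles of 46.3, 42.2 and 50.3. The nearest AD/- summit was 3908 bp away. By the lowest of its 3 percentiles it ranked 8 among the 308 regions found in null alone, whose median was 10.4. Of the 2 regions this one kept its call at scores of at least 5 and with lists of equal length. Those settings only take out weak summits, so this restates its higher percentiles in null. They cannot test whether AD/- lacks the site.

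The Wnt8a region (chromosome 18, 34541633 to 34542178) lay 443 bp outside the lower end of this embryonic ligand gene. It had no summit in the AD/- libraries, and percentiles of 7.75, 13.8 and 11.1 in null libraries 1 to 3, with the nearest AD/- summit 3515 bp away. Another region near Wnt8a, 3959 bp from the gene, was found in all 6 libraries. The same summits made Wnt8a the gene with a gene-end summit in null alone. The score in null library 1 was 4.82, so this summit was lost at scores of at least 5, and the call with it.

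**Figure D5:**
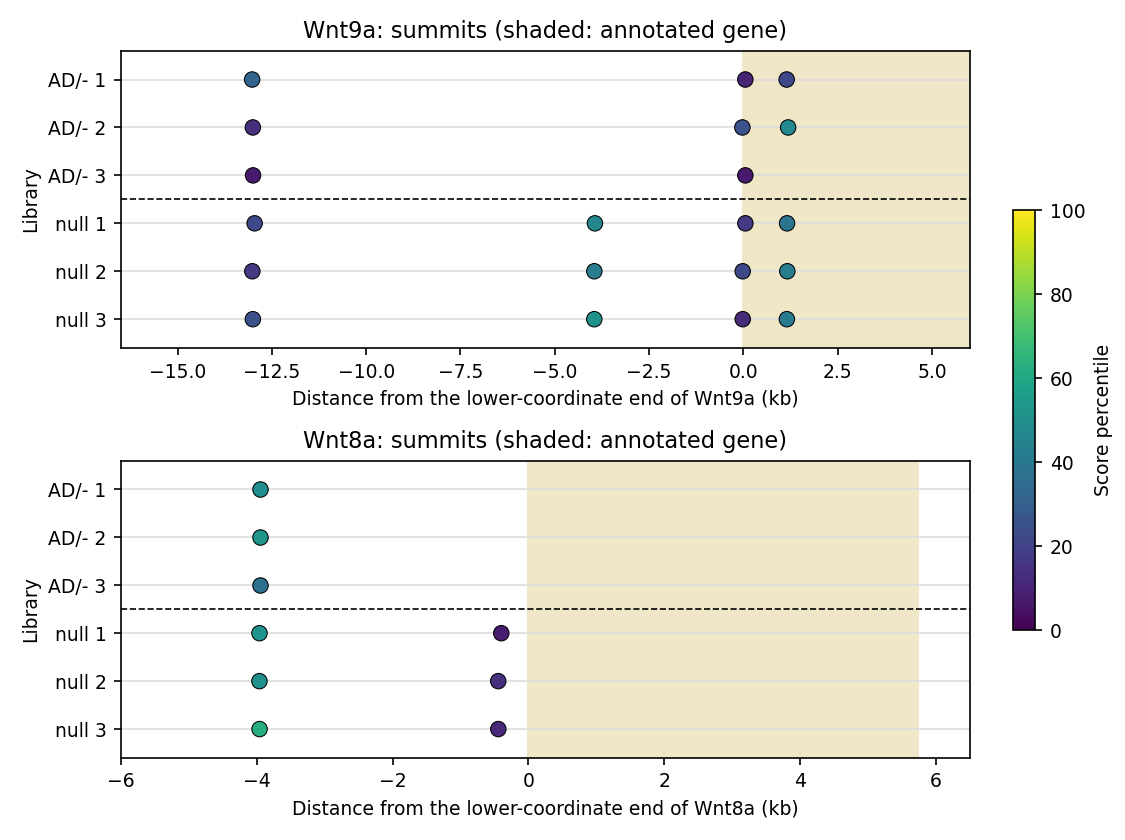
Summits in each library (rows, AD/- above null) by distance from the lower-coordinate end of Wnt9a (top) and Wnt8a (bottom), in kb, coloured by score percentile; shading marks the annotated gene. Summits about 4 kb before Wnt9a and about 0.4 kb before Wnt8a appear in the null rows alone, beside summits shared by all rows.

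The same regions set the counts per gene. Wnt9a had 3, 3 and 2 regions in AD/- and 4, 4 and 4 in null, and Wnt8a had 1, 1 and 1 in AD/- and 2, 2 and 2 in null. They were the 2 genes of the 35 with an assigned region in which every null library lay above every AD/- library, as in 0.771% of all genes with a region, and 0 genes had the opposite order, as in 0.261%. These counts hold the null-only regions already described and are no further measure of them. The AD/- library 3 also lacked a region 1157 bp inside Wnt9a that the other 5 libraries had. Leaving out a library loosened the rule for every gene and region. Without AD/- library 3, 1 region, near Wnt3a, was found in AD/- alone, where 1.08% of all regions were. Without AD/- library 1, Axin1 had a gene-end summit in AD/- alone, where 0.0601% of all genes did. The number of regions found in null alone was 4 without AD/- library 2 and 4 without null library 1, where 1.84% and 1.26% of all regions were, in place of 2 with all libraries.

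Apart from Wnt9a and Wnt8a, the 7 further regions found in exactly 3 libraries mixed the genotypes. They lay near Wnt10a, Gsk3b, Wnt4, Fzd10 and Ctnnb1, with 2 each at Fzd10 and Ctnnb1. Those at Wnt10a and Gsk3b, 2645 and 25081 bp from a gene end, were each found in AD/- library 2 and null libraries 1 and 3. Those at Ctnnb1, 1088 and 300 bp from an end, were found in AD/- libraries 1 and 3 with null library 1 and in AD/- libraries 1 and 2 with null library 1. All 4 were weak, with median percentiles from 3.2 to 15.1. At Fzd10, 32715 and 33644 bp beyond the gene, 2 neighbouring regions had median percentiles of 60.4 and 62.4. The first was found in AD/- libraries 1 and 3 and null library 2, and the second in AD/- libraries 2 and 3 and null libraries 1 and 3. Each library had a summit in at least 1 of these 2 regions. Another lay 34869 bp beyond the gene and was found in AD/- libraries 2 and 3 and null library 1.

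Other genes of the pathway, in lists of 72 genes in all, were counted in the same way. Of these, 50 (69.4%) had a gene-end summit in all 6 libraries, 5 in some and 17 in none. Porcn and Wls, which lipid-modify and carry Wnt proteins, had one in all 6 libraries, as did 10 of 11 further receptors and co-receptors, Lgr5 being the exception with none. Among 16 secreted agonists and antagonists, Wif1 and Notum had one in all 6 libraries, and 11, among them Dkk1, the 4 R-spondin genes and Frzb, had none. Of 16 cytoplasmic genes 15 had one in all 6 libraries, and of 13 nuclear effectors 12, among them Tcf7 with 20 regions and Lef1 with 31, of which 12 and 18 were in all 6 libraries. In the planar polarity and calcium branch 9 of 14 genes had one in all 6. Of the 438 regions of these genes, 0 were found in every AD/- library and none in null, where 0.179% of all regions were, and 2 in every null library and none in AD/-, where 0.418% were, so the counts stood near the background. The 2 lay near Ror2, a receptor for WNT5A (lowest percentile 7.22), and Btrc, the ubiquitin ligase subunit that recognises beta-catenin (10.4).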

How the data were processed

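The files deposited by the authors hold summits of peaks for each library, with a score in the last column. No label names its unit, and it was read as the −log10 of a q-value because the lowest scores were 1.3 to 1.39 and a q-value of 0.05 gives 1.3. The submitters' processing notes list MACS2 2.1.2, Picard 2.9.0, Trim Galore 0.4.5, Bowtie2 2.3.4.2 and the build GRCm38, with no roles. Shifting of cut sites, removal of duplicates and masking are not given in the sources used here. Peaks were held per library, so libraries served as replicates, and read depth is unknown.

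Genes came from a RefSeq table on GRCm38.p6 and start sites from RefSeq promoter windows. Presence, regions and counts were computed with Python 3.11.15 and pandas 2.3.3, and the calls were tested on simulated data. The simulated genotype-specific summits stood in every library of their genotype and in none of the other. No summit was missed and the lists were of equal length. This test thus checked the code and says nothing of the reliability of calls in these data. The replicate numbers name libraries only. All members are accounted for; values per library are given for members whose gene-end state differed between libraries, with a genotype-specific region or a region in exactly 3 libraries, among the 5 with the most regions (with all genes tied for the last place) or the 6 with the highest median percentile at a gene end; other members named were chosen after their values were seen. The members and gene lists were chosen with earlier results of these data known. The search for the p53 element was added after the data were seen. Of B cell, erythroid, myeloid and mesenchymal or endothelial markers, 1 of 5, 1 of 5, 0 of 6 and 3 of 8 had a gene-end summit in all 6 libraries.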

Additional observations from a re-analysis of the deposited data

How the results depend on the processing

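The region near Wnt9a kept its null-only call under all alternatives tried, but these could hardly have removed it. Leaving out a library or asking for 2 or more of 3 only loosens the rule. The other distances tried were short of the 3908 bp to the nearest AD/- summit or beyond the 3952 bp to the gene. Scores of at least 5 and lists of equal length only take out weak summits and cannot add one in AD/-. The null summits of this region, at scores of 25.4, 54.9 and 36.7 in libraries 1 to 3, stood above both cuts. The call was thus bound to stay at these settings too. The region near Wnt8a lost its null-only call at scores of at least 5, where null library 1 dropped out, and with lists of equal length, where none of its summits was left. Genes with a gene-end summit averaged 21.7 in AD/- and 23 in null within 500 bp, 29.7 and 31.7 within 2 kb, and 19 and 19.7 for start sites alone, where only 27 genes could be counted. At scores of at least 5 the mean was 23 in AD/- and 26.3 in null, and with lists of equal length both means were 22.7. Gene ends open in null alone numbered 0 at scores of at least 5 and with equal lists; the 0 for start sites was fixed beforehand, because Wnt8a has no start-site window. Regions found in null alone numbered 1 at scores of at least 5 and with equal lists, and genes with more regions in every null library 1 and 0. Shares over all genes and regions were not computed at these settings, so these counts cannot be set against a background. With 2 or more of 3 libraries against 0, there was 1 gene end (Axin1) for AD/- and 1 (Wnt8a) for null, where 0.213% and 0.236% of all genes were called, and 1 region (Wnt3a) for AD/- and 6 for null, where 1.51% and 2.37% of all regions were. With each library left out in turn, gene ends in AD/- alone ranged from 0 to 1 and in null alone stayed at 1. Over all genes these shares ran from 0.0277% to 0.143% and from 0.0416% to 0.245%. Regions in AD/- alone ranged from 0 to 1 and in null alone from 2 to 4 (from 0.322% to 1.08% and from 0.558% to 1.84% of all regions). Genes with more regions in AD/- ranged from 0 to 1 and in null from 2 to 4. The share over all genes was not computed for these counts per gene, so their rise cannot be judged. The mean number of genes with a gene-end summit ranged from 24.5 to 26.5 in AD/- and from 26.5 to 27.5 in null. The causes were not tested. No paired analysis was possible because the labels give no replicate numbers. Unknown read depth limits every statement on a missing summit.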
